A study of Mus musculus with 1 sample.

Results

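The transcripts of the chemokine ligands, the small secreted proteins that steer migrating cells, were examined in 1 RNA library of cultured mouse pancreas fibroblasts. The ligands were taken by symbol: all genes named Ccl or Cxcl with a number, together with Cx3cl1, Xcl1, Pf4 and Ppbp. These were 41 of the 23386 genes in the table, on 44 rows, and the rule itself reads symbols only. A further 14 rows carry the name of one of these genes with a copy suffix, and all of them held 0 reads. By its labels the library came from an expanded culture of normal pancreas from a mouse of mixed C57BL/6 and BALB/c background with the genotype tf1acre-;KrasWT;Tgfrb2flox/flox, and its cells are called normal fibroblasts. The labels used here give no age and no sex, and do not say how many animals the culture came from. The series set such cells against fibroblasts from pancreas tumours, but only this library was analysed here, so no difference between conditions was measured. The header of its value column holds a CAF code and so goes against the label. The text therefore speaks of the library labelled normal fibroblast. There was no replicate: the intervals given (95%) reflect the counting of reads and not how cultures vary.

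Chemokines are sorted by the spacing of their first cysteines into the CXC, CC, CX3C and C families. They act on receptors coupled to G proteins, while atypical receptors bind and remove them without such signalling, and heparan sulphate chains hold them at the cell surface. In stroma, CXCL12 is the classical constitutive ligand of fibroblasts. Others, such as CCL2 and CXCL1, are induced by inflammatory cytokines through NF-kappaB, or, like CXCL9 and CXCL10, by interferons.

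The library held 52494688 reads, recovered from the deposited normalised values, so that 1 read is 0.0190 CPM (reads per 1000000 reads). The 8 fibroblast markers examined summed to 11105 CPM, with a median of 663 CPM. All 8 had at least 10 reads, against 67.6% of the protein-coding genes. Markers of other cells were present too, and their part in the ligand levels was not tested. The summed levels were 551 CPM for 4 mesothelial markers, 285 CPM for 5 acinar markers, 182 CPM for 5 endothelial markers, 34.9 CPM for 4 platelet markers, 31.4 CPM for 5 epithelial markers and 21.9 CPM for 8 leukocyte markers. Of the 1831 platelet marker reads, Gp1bb gave 574, and 91.1% of its exonic bases also belong to Sept5 on the same strand. Of the endothelial sum, Kdr alone gave 181 CPM, while Cdh5 and Pecam1 had 17 and 13 reads. No marker was at 0 reads, and those under 10 reads were Emcn, Cd3e and Gp9, with 5, 3 and 1 reads. In a bulk library, fewer cells of a type and less RNA per cell cannot be told apart.

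The chemokine ligands were mostly at or near the detection limit, with 1 member far above all others. Of the 41 ligands, 15 (36.6%) had at least 10 reads, against 67.6% of the protein-coding genes. At least 1 read was seen for 32 ligands (78.0%), against 90.9% of the protein-coding genes, and at least 50 reads for 9 ligands, against 57.7%. The 17 ligands with 1 to 9 reads held 64 reads in all. The remaining 9 (22.0%) had 0 reads, against 9.13% of the protein-coding genes. The median ligand had 0.114 CPM, or 6 reads, against 4.71 CPM for the median protein-coding gene. On the scale of log2(CPM + 0.5) the ligand median was -0.70 and the protein-coding median 2.38, a difference of -3.08. Per kilobase of exons the medians were 0.0755 RPKM (reads per kilobase and per 1000000 reads) for the ligands and 1.19 RPKM for the protein-coding genes, and the difference on the log2 scale was -1.55. Only 4 ligands, Cxcl12, Cxcl16, Ccl2 and Ccl7, had more reads than the median protein-coding gene, and the same 4 lay above its 1.19 RPKM.

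**Figure D1:**
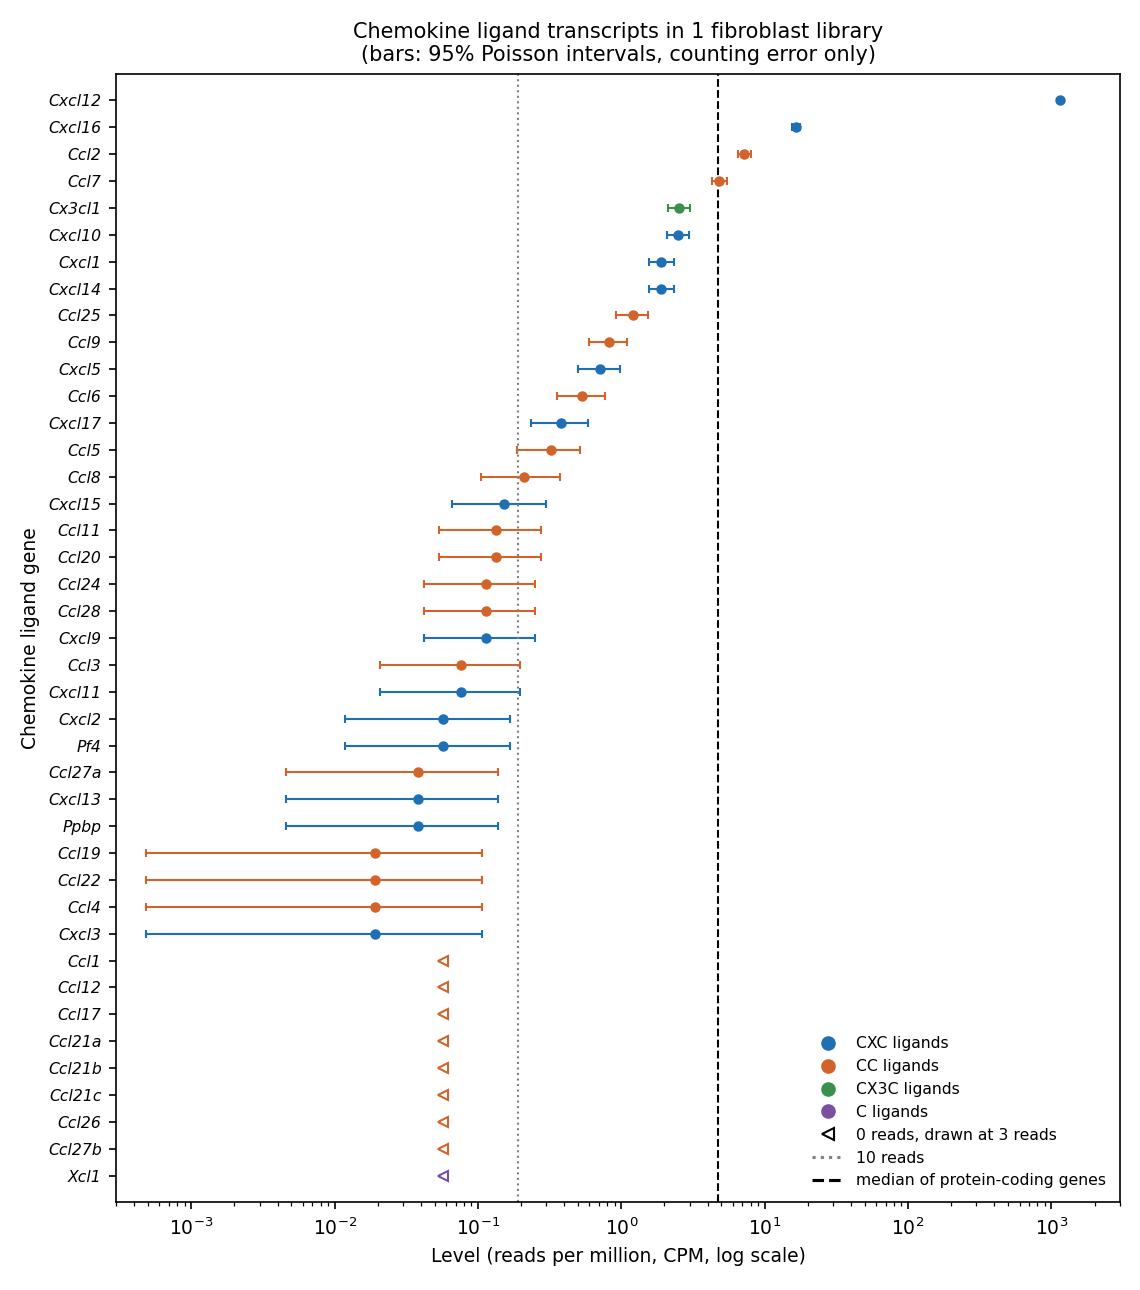
Level of each of the 41 chemokine ligand genes in CPM (log axis), with 95% Poisson intervals, in the library labelled normal fibroblast. Cxcl12 lies alone at 1144 CPM, the other 40 genes lie at or below 16.6 CPM, and the 9 genes with 0 reads are drawn as open triangles at the 3 reads that a count of 0 allows.

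**Figure D2:**
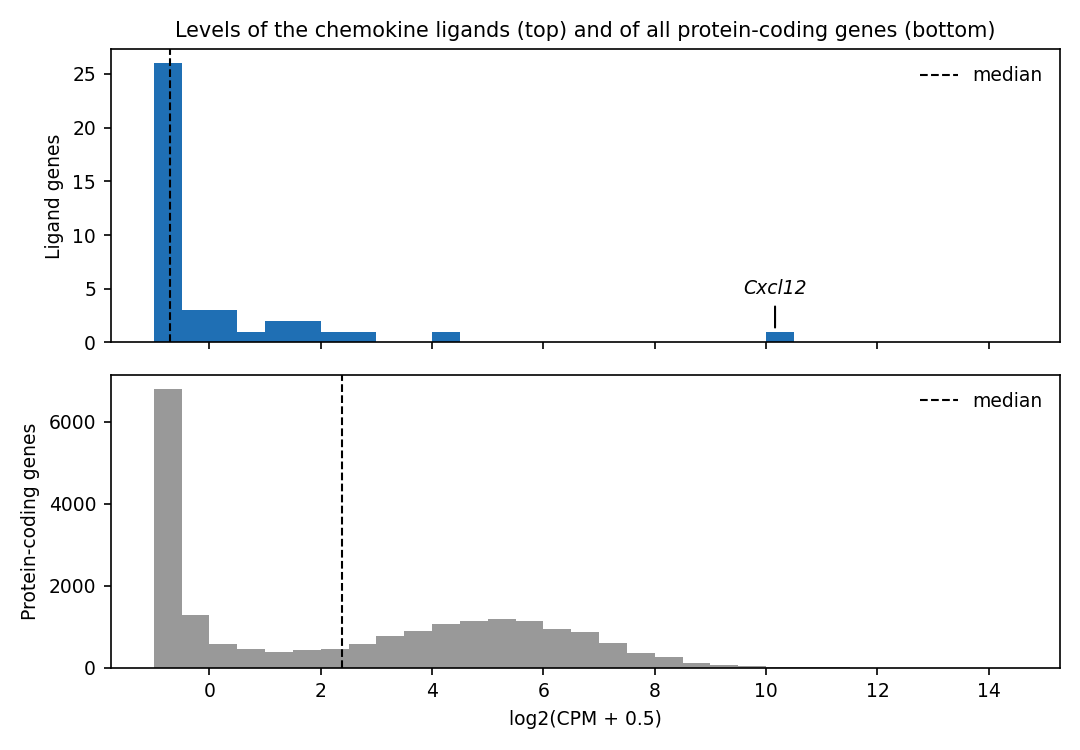
Number of genes by log2(CPM + 0.5), for the 41 chemokine ligands (top) and all 20559 protein-coding genes (bottom), with dashed lines at the medians of -0.70 and 2.38. Most ligands fall in the lowest bin, and Cxcl12 lies in the upper tail of the protein-coding distribution.

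Cxcl12 encodes the stromal ligand that keeps blood stem cells in the marrow niche and acts through the receptor CXCR4. The gene lies at chr6:117168535-117181367 on the forward strand of GRCm38. It had 60046 reads, or 1144 CPM (exact Poisson interval 1135 to 1153), which placed it at rank 76 of all genes. Per kilobase of exons it had 139.9 RPKM, above 99.3% of the protein-coding genes. It held 96.4% of all 62296 ligand reads (exact Clopper-Pearson interval 96.2% to 96.5%). Dividing by length lowers this share, because the exons of Cxcl12 span 8176 bases and those of most other ligands far fewer: on the RPKM scale Cxcl12 was 84.9% of the ligand sum. With the longest single transcript of each gene as its length the share was 88.5%. The table has 1 row for the 3 RefSeq transcripts of Cxcl12, so isoforms were not told apart. For scale among secreted products, the RPKM level of Cxcl12 was 0.330 times that of the collagen gene Col1a1 (0.327 to 0.333) and 0.943 times that of Csf1, the macrophage growth factor gene (0.932 to 0.955). By reads, without division by length, the order against Csf1 turns, and Cxcl12 was 1.46 times as high (1.44 to 1.48).

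Next came 3 ligands with RPKM levels close to each other. Ccl2 encodes a main attractant of inflammatory monocytes through CCR2 and had 379 reads, or 7.22 CPM (6.51 to 7.98). Ccl7, also a CCR2 ligand, had 254 reads, or 4.84 CPM (4.26 to 5.47). Cxcl16 encodes a transmembrane ligand of CXCR6, which can be shed from the cell, and had 870 reads, or 16.6 CPM (15.5 to 17.7). Per kilobase these were 6.34 RPKM for Ccl2, 6.04 RPKM for Ccl7 and 5.49 RPKM for Cxcl16. The RPKM ratio was 1.05 for Ccl2 over Ccl7 (0.894 to 1.24) and 1.10 for Ccl7 over Cxcl16 (0.954 to 1.27), so both intervals included 1. The interval of Ccl2 over Cxcl16, at 1.16 (1.02 to 1.31), did not. The order by CPM, with Cxcl16 first, came from its exonic length of 3021 bases against 1138 for Ccl2 and 801 for Ccl7. The RPKM level of Cxcl12 was 22.1 times that of Ccl2 (19.9 to 24.5) and 25.5 times that of Cxcl16 (23.9 to 27.3). Of the exonic bases of Cxcl16, 552 also belong to Zmynd15 on the opposite strand, which had 53 reads.

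The next 4 ligands lay near or below 1 RPKM. Cxcl10, an interferon-induced attractant of T cells, had 131 reads, or 2.50 CPM (2.09 to 2.96). Cxcl14, a CXC ligand of epithelia and stroma, had 100 reads, or 1.90 CPM (1.55 to 2.32). Cxcl1, which attracts neutrophils through CXCR2, also had 100 reads. On the RPKM scale Cxcl10 had 1.11, Cxcl14 1.04 and Cxcl1 1.02, and the ratios of neighbours had intervals that included 1. Cx3cl1, the gene of the membrane-bound ligand fractalkine, had 133 reads, or 2.53 CPM (2.12 to 3.003), but only 0.645 RPKM, below the interval of Cxcl1. Among the 14 pairs of neighbours in the RPKM order of detected ligands, the interval of the ratio excluded 1 in 4. These were Cxcl12 over Ccl2, Cxcl16 over Cxcl10 at 4.95 (4.12 to 6.00), Cxcl1 over Cx3cl1 at 1.58 (1.20 to 2.06), and Ccl9 over Ccl25.

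The other 7 detected ligands had between 11 and 63 reads. Among neighbours in their RPKM order, only Ccl9 over Ccl25 had a ratio whose interval excluded 1, at 1.67 (1.11 to 2.50). Cxcl17, a mucosal ligand, had 20 reads, or 0.501 RPKM. Ccl8, which acts on CCR8 in the mouse, had 11 reads, or 0.410 RPKM. Cxcl5, a neutrophil attractant, had 37 reads, or 0.378 RPKM. Then came ligands of CCR1. Ccl5 had 17 reads (0.337 RPKM), and the rodent ligands Ccl6 and Ccl9 had 28 and 43 reads (0.297 and 0.269 RPKM). The lowest per kilobase was Ccl25, a ligand of the thymus and small intestine, with 63 reads, or 0.161 RPKM. Of its exonic bases 204 also belong to the abundant gene Elavl1 on the opposite strand, which had 11185 reads, and how the counting assigned reads there was not tested.

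**Figure D3:**
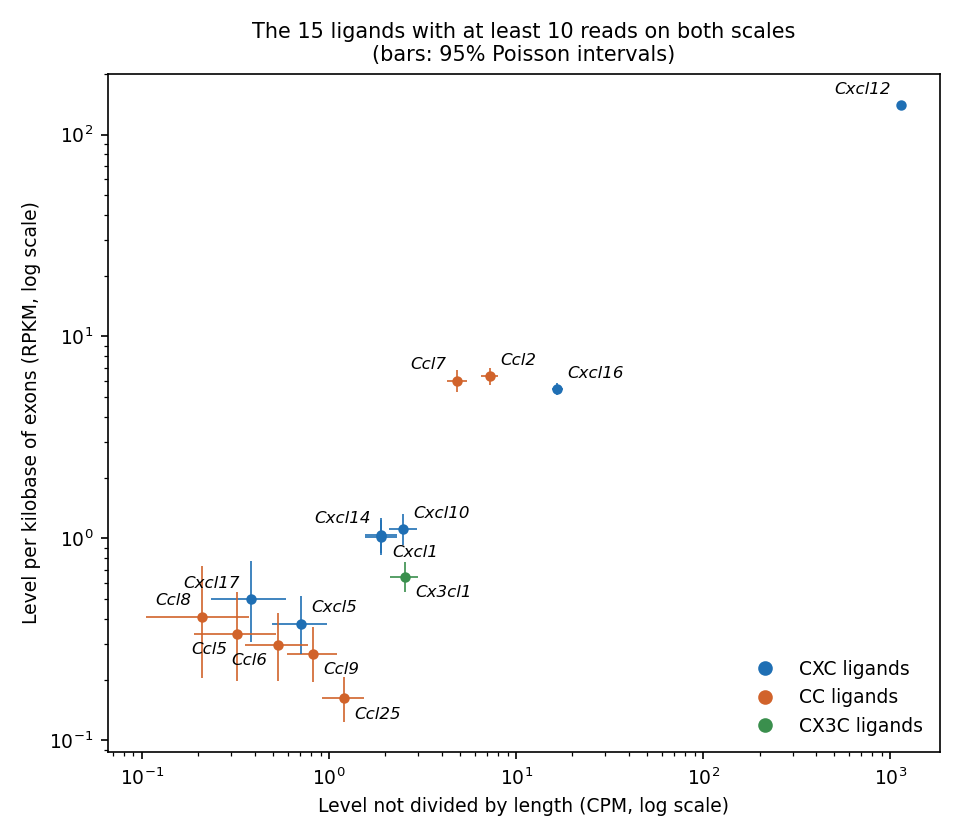
Level per kilobase of exons (RPKM) against level without division by length (CPM) for the 15 ligands with at least 10 reads, both on log axes, with 95% Poisson intervals. Cxcl12 stands alone at the top, Ccl2, Ccl7 and Cxcl16 form a level row near 6 RPKM, and Ccl25 falls from ninth by CPM to the lowest by RPKM.

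By structural family, all 15 CXC ligands had at least 1 read and 7 of them at least 10 reads. Among the 24 CC ligands 7 had at least 10 reads and 8 had none. For the protein-coding genes the shares were 90.9% with at least 1 read, 67.6% with at least 10 reads and 9.13% with none. CXC ligands held 98.5% of the ligand reads (98.4% to 98.5%), CC ligands 1.33% (1.24% to 1.43%) and Cx3cl1 0.213% (0.179% to 0.253%). Xcl1, the C family member, had 0 reads, which, taken as up to 3 reads, allows 0.0571 CPM. The CXC share rested on Cxcl12. Without it, CXC ligands held 57.2% of the remaining 2250 reads and CC ligands 36.9%. Per kilobase the order of the families was the other way round, with 39.6% of the RPKM sum in CXC ligands and 57.8% in CC ligands.

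Grouped by the receptor they act on, or by a shared structure, the ligands differed widely. The CCR2 ligands summed to 633 reads, all from Ccl2 and Ccl7, and gave 49.8% of the RPKM sum without Cxcl12. Ccl12, another CCR2 ligand of the mouse, had 0 reads. The transmembrane ligands Cxcl16 and Cx3cl1 summed to 1003 reads and 24.7% of that RPKM sum. The CXC ligands with the ELR motif, which attract neutrophils, summed to 151 reads: 100 for Cxcl1, 37 for Cxcl5, 8 for the lung ligand Cxcl15, 3 for Cxcl2, 2 for the platelet product Ppbp and 1 for Cxcl3. The interferon-induced CXCR3 ligands summed to 141 reads, of which Cxcl9 gave 6 and Cxcl11 gave 4. On the RPKM scale Cxcl10 was 29.2 times as high as Cxcl9 (13.1 to 81.1).

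The ligands under 10 reads came from several receptor groups. The CCR7 ligands, which guide cells into lymph nodes, had 1 read for Ccl19 and 0 for Ccl21a, Ccl21b and Ccl21c. These genes have near-identical copies, so their counts are uncertain. Cxcl13, which attracts B cells, had 2 reads. Among the eotaxins, which attract eosinophils through CCR3, Ccl11 had 7 reads, Ccl24 6 and Ccl26 0. The CCR4 ligands of T cell recruitment had 1 read for Ccl22 and 0 for Ccl17, and the CCR6 ligand Ccl20 had 7 reads. The CCR8 ligand Ccl1 had 0 reads. Of the epithelial CCR10 ligands, Ccl28 had 6 reads and Ccl27a 2, and the copied gene Ccl27b had 0. Ccl3 and Ccl4, products of activated leukocytes, had 4 reads and 1 read. Pf4, the platelet factor gene, had 3 reads. At these counts the order of the genes was not tested and is not read here. The leukocyte markers beside these ligands ranged from 3 reads for Cd3e to 483 for Lyz2, with 26 reads for Ptprc, the pan-leukocyte gene, and their part in these counts was not tested. The platelet markers ranged from 1 read for Gp9 to 1073 for Itgb3, and their part was not tested either.

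Many chemokine genes lie in clusters, and the reads of each group of neighbours are given here. On chromosome 11, 6 CC genes lie within chr11:82035571-82305690. The first pair, Ccl2 and Ccl7, whose starts are 10.1 kb apart, held 633 of the 651 reads of the group. Ccl11 begins 22.3 kb from the start of Ccl2 and had 7 reads, and Ccl12 and Ccl1 had 0. In a second group of 5 CC genes at chr11:83525778-83664683, no member exceeded the 43 reads of Ccl9. On chromosome 5, 7 CXC genes lie within chr5:90759360-90905938 and held 154 reads. There Cxcl1 with 100 reads lies next to Cxcl2 with 3 reads, although both encode CXCR2 ligands. The RPKM level was 1.02 for Cxcl1 (0.827 to 1.24) and 0.0276 for Cxcl2 (0.00570 to 0.0808). Cxcl10 lies between Cxcl9 and Cxcl11 on the same chromosome and held 131 of the 141 reads of that trio. The 5 members placed on chromosome 4 shared 3 reads.

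**Figure D4:**
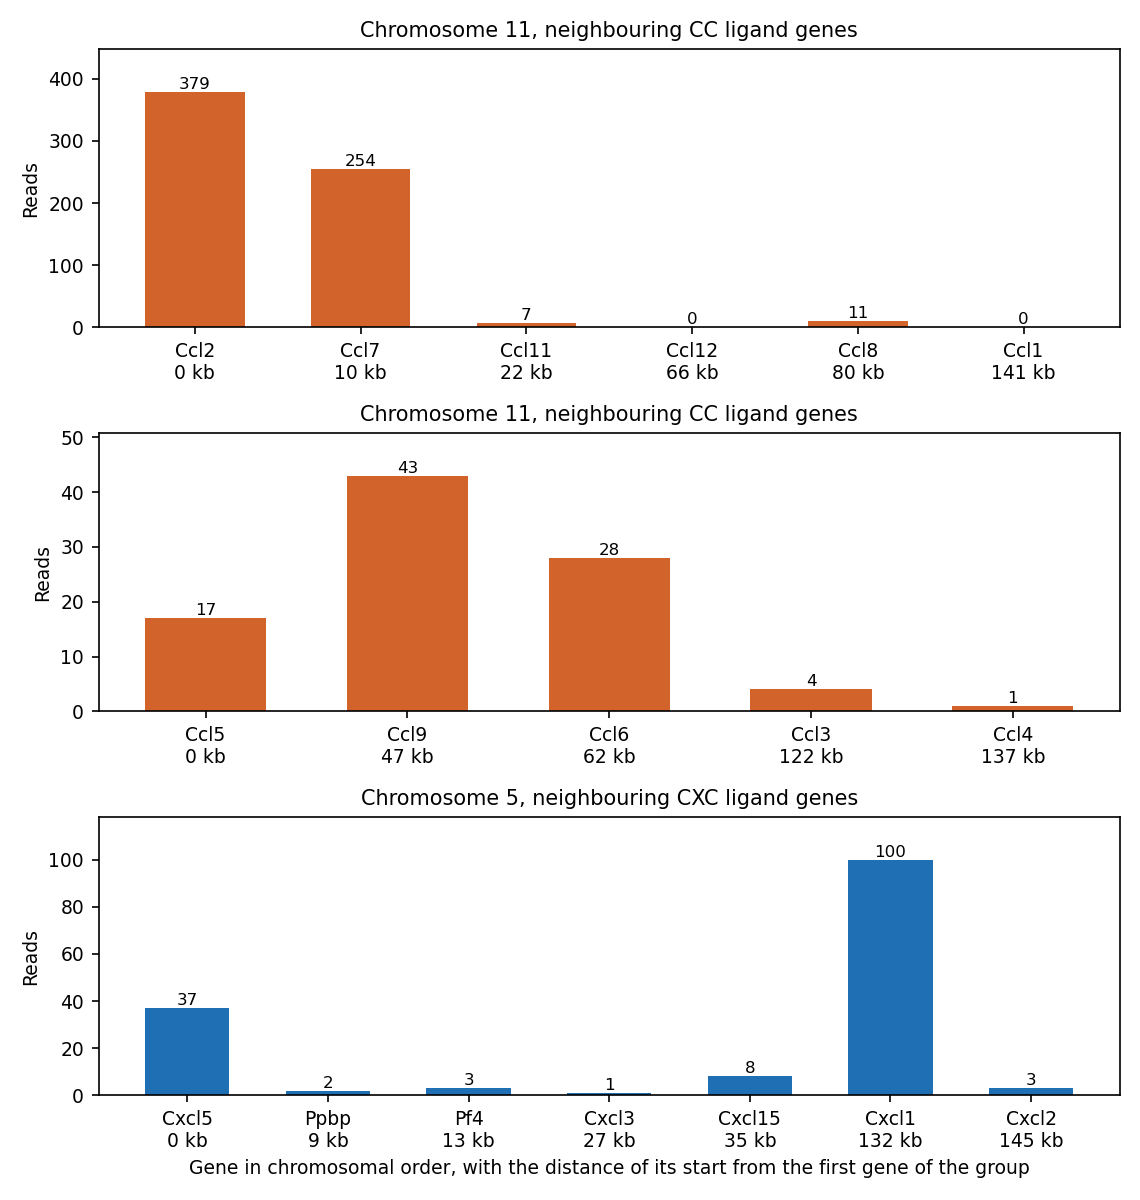
Reads of each gene in 3 chromosomal groups of chemokine ligand genes, in chromosomal order, with the distance in kb of each start from the first gene of the group. Ccl2 (379 reads) and Ccl7 (254), Ccl9 (43) and Ccl6 (28), and Cxcl1 (100) and Cxcl5 (37) have the most reads in their groups. Ccl5 reaches 17 reads, and the other bars lie between 0 and 11 reads.

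The sequences before 5 start sites are shown. Cxcl12 was the most abundant ligand, and the other 4 genes, which lay far below it, were picked as textbook targets of NF-kappaB. A contrast in NF-kappaB motifs is thus partly built into the choice, and any link to the levels was not tested. Each sequence is the run of 170 bases that ends just before the RefSeq start site, 5′ to 3′ on the strand of the gene. Capitals mark matches of the NF-kappaB consensus motif, searched on both strands.
Cxcl12 (chr6:117168365-117168534, forward strand, 60046 reads): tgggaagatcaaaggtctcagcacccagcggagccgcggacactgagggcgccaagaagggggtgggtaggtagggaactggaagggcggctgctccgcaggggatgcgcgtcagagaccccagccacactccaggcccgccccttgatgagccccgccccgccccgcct
Cxcl1 (chr5:90891075-90891244, forward strand, 100 reads): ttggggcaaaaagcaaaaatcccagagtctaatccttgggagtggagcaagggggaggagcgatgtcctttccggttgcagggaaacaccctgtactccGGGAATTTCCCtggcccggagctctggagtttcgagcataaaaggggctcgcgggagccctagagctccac
Cxcl2 (chr5:90903729-90903898, forward strand, 3 reads): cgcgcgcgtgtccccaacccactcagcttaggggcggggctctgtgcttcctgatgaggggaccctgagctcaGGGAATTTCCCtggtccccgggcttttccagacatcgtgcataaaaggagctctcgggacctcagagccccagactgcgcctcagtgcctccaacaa
Cxcl3 (chr5:90785931-90786100, forward strand, 1 read): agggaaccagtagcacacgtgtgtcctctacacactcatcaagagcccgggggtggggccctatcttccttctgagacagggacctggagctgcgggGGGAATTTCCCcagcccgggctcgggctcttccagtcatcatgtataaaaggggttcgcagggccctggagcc
Cxcl10 (chr5:92348890-92349059, reverse strand, 131 reads): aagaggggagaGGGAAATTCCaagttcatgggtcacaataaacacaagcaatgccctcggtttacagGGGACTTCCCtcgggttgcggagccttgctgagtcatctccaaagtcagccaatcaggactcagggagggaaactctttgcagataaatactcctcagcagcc
Cxcl1, Cxcl2 and Cxcl3 hold the same 10 bases, GGGAATTTCC, beginning 71, 97 and 73 bases before the RefSeq start, and the next base extends each to a second, overlapping match on the other strand. These distances depend on the annotation. In GENCODE, Cxcl1 and Cxcl2 start inside the windows shown, at chr5:90891241 and chr5:90903871. For Cxcl3 the 40 bases after the RefSeq start were not found in a GENCODE transcript. Cxcl10 has separate matches beginning 159 and 103 bases before its start. The window of Cxcl12 holds no match. Within 250 bases before the start, GGGAATTTCC on either strand occurred in 28 of 32851 mouse promoters (0.0852%), and the consensus motif in 3.90%. The 10 bases were taken from the match before Cxcl1, and the 28 promoters include those of Cxcl1, Cxcl2 and Cxcl3. The count is therefore a description and not a test. Of the 29 ligands in the promoter table, 6 had the consensus motif: Cxcl10, Cxcl1, Ccl9, Ccl20, Cxcl2 and Cxcl3, which ranged from 131 reads to 1 read. Those without a match included Cxcl12, but also Ccl1, Ccl12, Ccl17 and Xcl1 with 0 reads each. The promoter table had no entry for Cxcl16, Ccl2, Ccl7, Cxcl5 and Ccl5, among others, so the motif was not searched there. The 250 bases before Cxcl12 had 14 CG dinucleotides and 64.4% G and C, against medians of 6 and 52.4% over all promoters. Cx3cl1 also had 14 CG dinucleotides, and 133 reads. These matches describe the letters only, and binding was not measured.

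Most receptors of these ligands had few reads. Of 18 signalling receptor genes 8 had at least 10 reads, against 67.6% of the protein-coding genes, and the list median was 0.0307 RPKM, against 1.19 RPKM for the protein-coding genes. Cxcr4, the receptor of Cxcl12, had 37 reads (0.390 RPKM). Ccr1, a receptor of Ccl5, Ccl6 and Ccl9, had 52 reads (0.350 RPKM), and Cx3cr1, the receptor of Cx3cl1, had 25 reads (0.106 RPKM). Cxcr2 and Ccr3 had 18 reads each. Ccr2, the receptor of Ccl2 and Ccl7, had 3 reads, Cxcr6, the receptor of Cxcl16, had 2 reads, Cxcr3, the receptor of Cxcl10, had 1 read, and Cxcr1 had 0.

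Of the atypical receptors 3 of 5 had at least 10 reads, against 67.6% of the protein-coding genes. Ackr3, listed under its older name Cxcr7, encodes the scavenger of CXCL12 and had 894 reads, or 17.0 CPM (15.9 to 18.2). Its RPKM level of 5.09 was 13.0 times that of Cxcr4 (9.39 to 18.7). Ackr4, listed as Ccrl1, encodes the scavenger of CCL19, CCL21 and CCL25 and had 165 reads, or 3.14 CPM. Ccrl2 had 38 reads, while Ackr2 and Ackr1, listed as Ccbp2 and Darc, had 5 and 2 reads. The non-chemokine ligands of chemokine receptors were more abundant than most chemokines: Mif had 1678 reads (42.9 RPKM) and Hmgb1 1365 reads (5.18 RPKM). The median of the chemokine ligands was 0.0755 RPKM. Per kilobase, Mif lay below Cxcl12 only, and Hmgb1 lay below Cxcl12, Ccl2, Ccl7 and Cxcl16.

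Most genes that modify chemokines were above the protein-coding median. All 6 proteases examined had at least 10 reads, against 67.6% of the protein-coding genes, and their median was 32.4 RPKM, against 1.19 RPKM. Mmp14 and Mmp2, metalloproteinases that trim CXCL12 and CCL7, had 630 and 562 CPM, and Mmp9 had 10 reads. Adam10 and Adam17, the sheddases of CX3CL1 and CXCL16, had 271 and 69.3 CPM. Dpp4, which clips the amino terminus of CXCL12, had 14.2 CPM. All 6 genes of heparan sulphate synthesis had at least 10 reads, around a median of 14.97 RPKM. Those with the highest CPM were the polymerase gene Ext1 at 236 CPM, Ndst1 at 186 CPM, Ext2 at 156 CPM and Hs2st1 at 56.4 CPM.

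Genes that carry inducing signals were detected at shares above the 67.6% of the protein-coding genes with at least 10 reads. All 11 inducing receptors had at least 10 reads, and their median was 16.8 RPKM, against 1.19 RPKM for the protein-coding genes. The highest in CPM were Il6st at 455 CPM, the TNF receptor gene Tnfrsf1a at 138 CPM, Ltbr at 106 CPM and the interferon receptor gene Ifnar1 at 99.7 CPM, and Il1r1 had 60.9 CPM. All 7 inducing transcription factors examined had at least 10 reads, around a median of 26.9 RPKM: Hif1a had 393 CPM, Stat3 257 CPM, the NF-kappaB subunit gene Rela 118 CPM and Cebpb 46.5 CPM. Transcript levels do not show whether these factors were active. Of 15 other cytokines 11 had at least 10 reads, against 67.6% of the protein-coding genes, and their median was 0.370 RPKM, against 1.19 RPKM. In that list Csf1 had 783 CPM, Kitl 149 CPM, Lif 57.8 CPM and Il33 3.85 CPM, while Il6 had 145 reads, Tnf 5 and Il1b 2. The RPKM level of Ccl2 was 5.58 times that of Il6 (4.59 to 6.80).

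**Figure D5:**
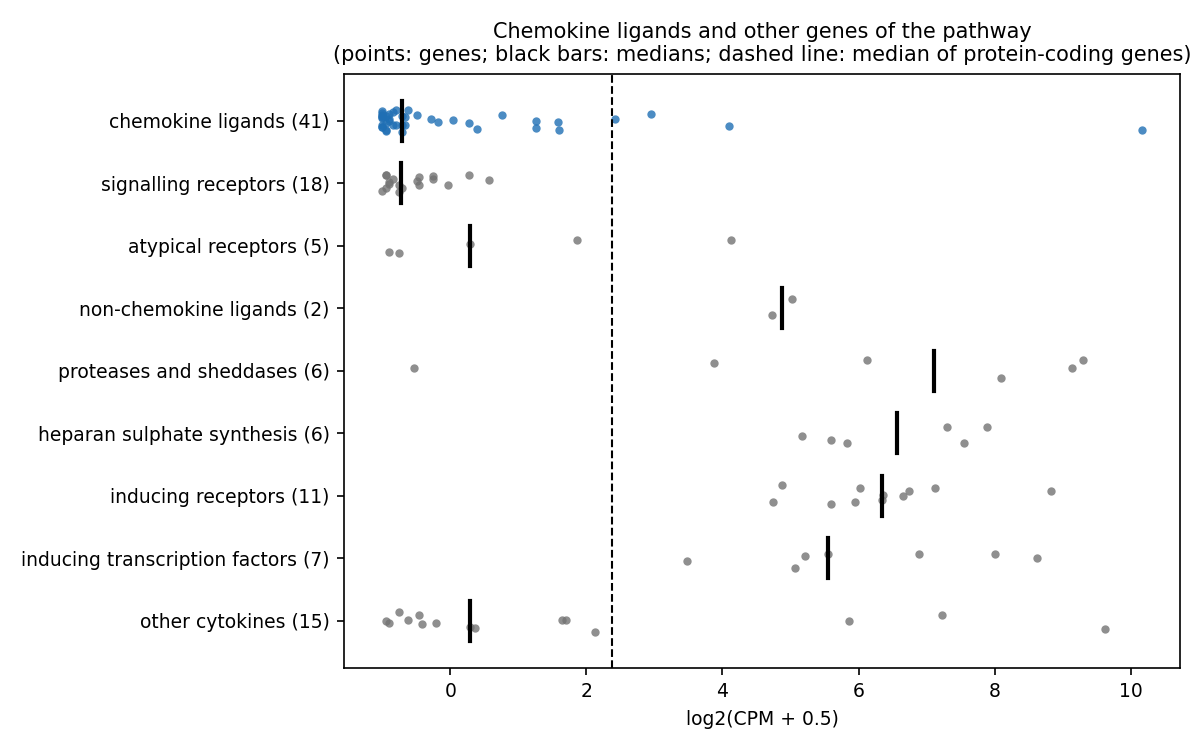
Level of each gene, as log2(CPM + 0.5), for the 41 chemokine ligands and 8 lists of related genes, with black bars at the medians and a dashed line at the protein-coding median of 2.38. The ligands and the signalling receptors lie mostly at the low end, while heparan sulphate enzymes, inducing receptors and transcription factors lie above the dashed line.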

How the data were processed

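RNA of 1 library was analysed: a SOLiD library from TRIzol-extracted RNA, per the labels' protocols. The table deposited by the authors gives a normalised signal for each of 24214 rows, named by gene symbol and RefSeq transcripts per the file headers. All 20976 values above 0 were whole multiples of 1.18 within 0.005 of a read, so the authors' signal was taken as read counts divided by a size factor of 0.850. DESeq and the mm10 build are named in the submitters' processing notes without a role. Not given in the sources used here are the aligner, the counting tool and its strand setting. The design had assumed deposited counts, and its measures were run on the recovered reads. On simulated libraries with 3 size factors the search recovered the reads of 100% of 24214 rows.

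Rows repeating a symbol or differing by a copy suffix were summed to 23386 genes, of which 20559 had an NM (protein-coding) accession. Levels were computed as reads per 1000000 reads (CPM) and per kilobase of exons (RPKM), with exon unions of GENCODE M21 on GRCm38, the assembly that mm10 denotes. Exact Poisson and Clopper-Pearson intervals (95%), the second also for ratios of read counts, cover counting error only, since reads are not independent molecules. The limit for a gene with 0 reads was set at 3 reads (0.0571 CPM). Detection meant at least 10 reads, and log2 values carry a pseudocount of 0.5. With 1 library no test was run, so a count test was not used. Promoters were read from a RefSeq table of GRCm38.p6.

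The rule for members reads symbols only, but members and lists were chosen with earlier results of these data known. The ligands were grouped by the receptor they act on, or by structure, as for the transmembrane ligands and those with the ELR motif. Cxcl16 was counted among both the transmembrane ligands and the other CXC ligands, so the groups overlap. The other lists were receptors, atypical receptors, other ligands, proteases, heparan sulphate synthesis, inducing receptors and transcription factors, other cytokines and 7 lists of cell type markers. Every ligand is named. An item of these lists is not reported here. Of the pathway lists the text names at least the 4 genes with the highest CPM and those that act directly on a ligand described. Alternatives were the scale, the total, the pseudocount, the detection minimum, unsummed rows, and members that overlap other genes or have copies. The software was Python 3.11.15 with scipy 1.17.1, pandas 2.3.3, numpy 2.4.6 and matplotlib 3.10.9.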

Additional observations from a re-analysis of the deposited data

How the results depend on the processing

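No paired analysis was possible because there is 1 library, and for the same reason none could be left out. A detection minimum of 1 read counted 32 of 41 ligands and 17 of 18 signalling receptors, against 90.9% of the protein-coding genes. One of 50 reads counted 9 ligands and 1 receptor, against 57.7%. The low share of receptors detected therefore depends on the minimum. Unsummed rows left 15 ligands detected, and leaving out members that overlap another gene or have copies left 12. The ligand median was 1.90 CPM over ligands with at least 10 reads, which by construction drops those with fewer. Under the other alternatives its value stayed between 0.0419 and 0.249. These bounds are the counting interval in CPM of a single gene with the median count, not of a median over all ligands. The value per kilobase, 0.0755 RPKM, is in another unit than these bounds. With a pseudocount of 5 the log2 value of the ligand median was 2.35. The difference from coding genes stayed negative: -1.55 per kilobase, -0.92 with a pseudocount of 5 and -1.97 against all genes, a background chosen after seeing the data. The Cxcl12 share was 84.9% per kilobase, 98.1% without overlapping and copied members and, added later, 88.5% with the longest transcript as length. Per kilobase the family shares were 90.9% for CXC, 8.72% for CC and 0.391% for CX3C. Without Cxcl12 they were 57.2%, 36.9% and 5.91%, and per kilobase without Cxcl12, also added later, 39.6%, 57.8% and 2.59%. The median of the 15 detected ligands was 0.645 RPKM per kilobase and 2.55 CPM with the 100 most abundant genes left out of the total, and 3 of the 15 kept their place in the order per kilobase. Of 45 values of single ligands under these scales, 21 stayed within the counting interval of the CPM value and 24 did not. That tally is no measure of stability. RPKM values are in another unit than the interval, and another total multiplies all ligands by the same factor. Depth limits every ligand under 10 reads, whose order was not tested and is not read here.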
